A study of Mus musculus with 4 samples.

Results

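The 10 immediate early genes Fos, Fosb, Jun, Junb, Egr1, Ier2, Atf3, Dusp1, Nr4a1 and Klf4 were taken by name from a table of 17568 genes, and all 10 were found in it. Immediate early genes are switched on within minutes of a stimulus, by transcription factors that already sit in the cell and need only be modified. Growth factor and stress signals reach them through MAP kinases, which act on serum response factor and its partners, and through kinases that act on CREB. Their transcripts are short-lived, so a level read at a single time is a snapshot of recent signalling, and handling of tissue is known to raise it. In the limb bud such signals include the FGFs of the apical ectodermal ridge.

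The tissue was forelimb at E10.25 (31 to 34 somites) from mouse embryos of the Swiss Webster strain, wild type in every library, held in culture in control medium or with cyclopamine, a plant alkaloid that blocks Smoothened and so the Hedgehog pathway. There were 2 control and 2 cyclopamine libraries, which the submitters call biological replicates. Limb buds went into TRIzol directly when the culture ended. The sources used here give neither the number of limbs or embryos in a library nor the dose, the vehicle or the time in culture. Every library is whole tissue, in which fewer cells of a type and less RNA per cell cannot be told apart.

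Recovered depth lay between 9779589 and 13555492 reads, and levels are given as normalized reads per 1000000 (CPM). The 10 limb mesenchyme markers summed to between 1744 and 2014 CPM, with a median log2 difference of 0.11 and 0 past the test, and 3 hindlimb markers to between 6.69 and 13.7 CPM, with a median of 0.18 and 0 past the test. Hedgehog targets were lower with cyclopamine. Gli1 measured 56.2 and 56.7 CPM in control against 8.05 and 4.70 CPM with cyclopamine, and fell by 3.10 on the log2 scale (SE 0.23, limma adjusted p = 4.32e-06). Ptch1 fell by 1.44 (SE 0.19, limma adjusted p = 0.00216), while Hhip, at 8.46 and 9.70 against 5.05 and 3.403 CPM, did not pass. Both cyclopamine libraries were below both controls for Gli1, Ptch1 and Hhip.

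Among the motifs searched in the 250 bases before the RefSeq start, TGACG, the core of the element that CREB and ATF factors bind, was in 7 of the 8 promoters at hand (Fos, Fosb, Junb, Atf3, Dusp1, Nr4a1 and Klf4). Jun had no TGACG on either strand. Its bases printed below hold tgacatca, a related spelling that none of the motifs searched can match. The absence in Jun therefore covers the searched spellings only. Over the 12837 promoters of tested genes, 26.0% held TGACG on either strand, and over all 32851 promoters 17.8% did. Shown for comparison are the last 120 bases before the start in build GRCm38.p6, 5′ to 3′ on the gene's strand, with TGACG or its complement CGTCA in capitals. Fos and Atf3 are genes with a larger difference between the groups, Nr4a1 had the most matches, and Jun had no match to TGACG or CGTCA. They lie at chr12:85473770-85473889 (Fos, plus strand), chr1:191183334-191183453 (Atf3, minus strand), chr15:101266726-101266845 (Nr4a1, plus strand) and chr4:95052223-95052342 (Jun, minus strand).
Fos: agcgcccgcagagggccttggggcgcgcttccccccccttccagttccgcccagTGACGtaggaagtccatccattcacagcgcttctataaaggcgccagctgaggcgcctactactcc
Atf3: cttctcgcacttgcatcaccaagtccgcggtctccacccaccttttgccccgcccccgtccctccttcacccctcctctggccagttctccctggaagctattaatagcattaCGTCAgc
Nr4a1: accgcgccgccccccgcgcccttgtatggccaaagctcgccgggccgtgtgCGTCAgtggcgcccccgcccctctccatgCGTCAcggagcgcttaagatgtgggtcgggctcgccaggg
Jun: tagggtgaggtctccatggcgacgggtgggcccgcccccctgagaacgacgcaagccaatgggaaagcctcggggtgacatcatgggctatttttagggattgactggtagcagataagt

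Fos held 2 matches, the nearer beginning 66 bases before the start, and the only TATAAA box among the 8 promoters (6.52% of promoters of tested genes). The single match in Atf3 began 7 bases before the start. Nr4a1 held 4 matches in 250 bases, the nearest 40 bases from the start. This RefSeq start, at 101266846, lies inside the GENCODE model of Nr4a1 used below, which begins at 101254269. Dusp1 held 3, and was the only member with the full palindrome TGACGTCA (2.57% of promoters of tested genes). The AP-1 site TGANTCA was in 0 of the 8 (4.23%), the CArG box of serum response factor in 0 (1.17%), GGAAGT in 2, Fos and Junb (21.8%), and CCGGAAGT in 0 (5.4%). TGACGTCA contains TGACG, and CCGGAAGT contains GGAAGT, so these counts overlap. A match is a description of letters, and sites farther from the start were not searched.

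With cyclopamine, Fos, Egr1 and Atf3 lay higher than in control, and 0 of the 10 genes passed the test over all genes. Both cyclopamine libraries lay above both controls for 5 genes (Fos, Fosb, Egr1, Atf3 and Dusp1), whereas the groups overlapped for Jun, Junb, Ier2, Nr4a1 and Klf4. Over the 13568 genes tested, 16.8% lay above both controls in this way. The groups were almost level where they came closest for Fosb and Dusp1. For Fosb, control 2 held 0.882 CPM and cyclopamine 2 held 0.972 CPM, from 12 reads each. For Dusp1, control 1 held 23.7 CPM and cyclopamine 2 held 23.8 CPM. Limma called 0.28% of genes at an adjusted p of 0.05 and 0.0442% as higher in cyclopamine. At an unadjusted p under 0.05 the members held 3 genes, Fos, Egr1 and Atf3, all higher, beside 3.04% of all genes that were higher and 5.82% in either direction. The edgeR quasi-likelihood test (0.295% of genes called, 3.06% higher at an unadjusted 0.05), the edgeR exact test (0.568% called) and DESeq2 (0.383% called) each placed these 3 under an unadjusted 0.05 and called 0 members. Over the 13568 genes, the exact test placed 737 and DESeq2 522 under an unadjusted 0.05 in either direction. Of the 10, 9 had a fold change above 0, beside 51% of all genes, and their median log2 fold change was 0.31, beside 0.00 over all genes. None lay below both controls (15.8% of all genes). With 2 libraries a group, an exact permutation test cannot go below p = 0.333. With the replicate numbers as a block, limma called Fos and Egr1, among 351 of the 13568 genes tested. The labels tie these numbers to no litter, batch or day.

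**Figure D1:**
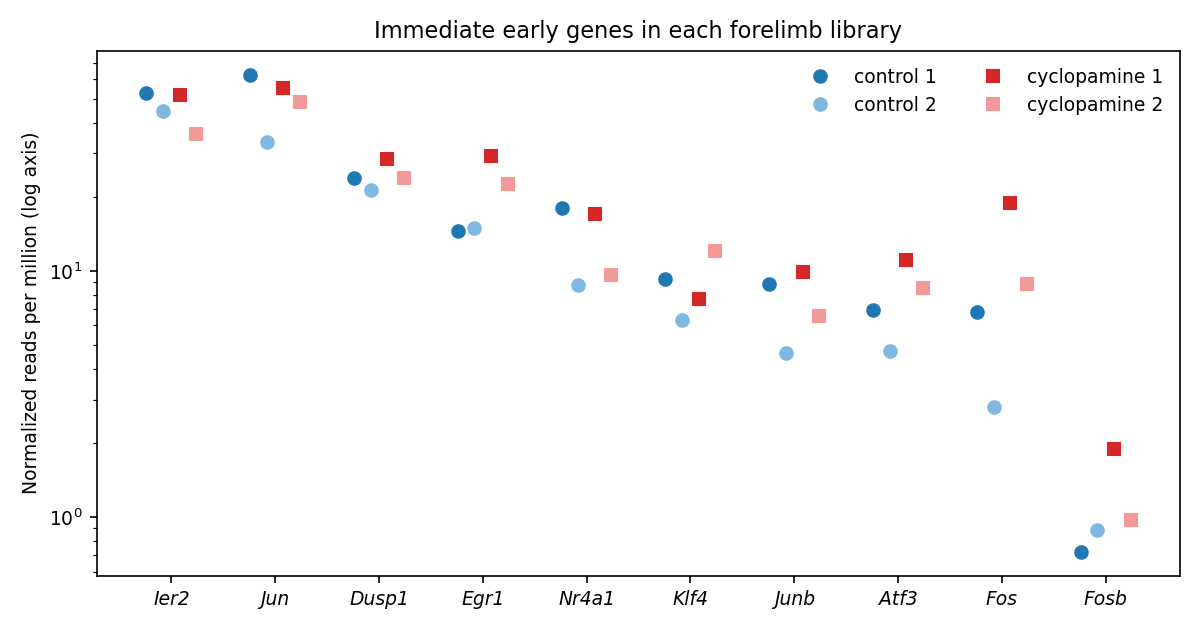
CPM on a log axis for each of the 10 genes, with a point per library (circles for control, squares for cyclopamine). For Fos, Fosb, Egr1, Atf3 and Dusp1 both squares lie above both circles, narrowly so for Fosb and Dusp1. For Jun, Nr4a1 and Ier2 the highest point is control 1.

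Fos and Fosb encode leucine zipper proteins that pair with Jun proteins to form AP-1. Fos measured 6.81 and 2.79 CPM in control against 18.8 and 8.83 CPM with cyclopamine. The lowest cyclopamine library was thus close to the higher control, and within each group library 1 held more than library 2. Mean levels were 4.80 ± 2.84 CPM (SD, n = 2) and 13.8 ± 7.03 CPM (SD, n = 2), a ratio of means of 2.88. On the log2(CPM + 0.5) scale the difference was 1.45 (SE 0.38, 95% interval 0.65 to 2.25, limma adjusted p = 0.237). These values rested on 66, 38, 238 and 109 reads in the same order. The call of Fos changed with the libraries included. Without control 1 the difference was 2.03 (limma adjusted p = 0.00855) and without cyclopamine 2 it was 1.97 (8.44e-05). Without control 2 it was 0.88 (0.643), and without cyclopamine 1 it was 0.93 (0.63).

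Fosb was the lowest member, at 0.722 and 0.882 CPM in control against 1.89 and 0.972 CPM with cyclopamine, from 7, 12, 24 and 12 reads. Cyclopamine 1 was the highest library, and its exact Poisson interval of 1.21 to 2.82 CPM, which covers counting error only, overlapped those of the other libraries. The log2 difference was 0.53 (SE 0.47, limma adjusted p = 0.9996).

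Jun and Junb, the partners of Fos in AP-1, showed no separation of the groups. Jun measured 62.6 and 33.3 CPM in control against 55.5 and 48.5 CPM with cyclopamine. The controls enclosed the cyclopamine libraries on both sides. Its log2 difference was 0.18 (SE 0.23, 95% interval -0.30 to 0.66), and it was -0.27 without control 2 and 0.63 without control 1. Junb measured 8.87 and 4.63 CPM against 9.86 and 6.56 CPM, a difference of 0.30 (SE 0.32, 95% interval -0.37 to 0.98). Library 1 of each group was again the higher. The interval of Junb includes a difference as large as the 0.78 of Egr1, and that of Jun does not.

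Egr1, a zinc finger transcription factor gene that responds to MAP kinase signals, had the tightest controls of the members. It measured 14.4 and 15.0 CPM in control against 29.2 and 22.6 CPM with cyclopamine, from 140, 204, 370 and 279 reads. Both cyclopamine libraries were clear of both controls, and control 1 minus control 2 was -0.05 on the log2 scale. Mean levels were 14.7 ± 0.384 and 25.9 ± 4.65 CPM (SD, n = 2 each), a ratio of 1.76, and the log2 difference was 0.78 (SE 0.20, 95% interval 0.35 to 1.21, limma adjusted p = 0.231). Leaving out any library kept a difference between 0.60 and 0.96, with limma adjusted p from 0.0929 to 0.783. By p it ranked 82 of the 13568 genes tested, and Fos 85. The authors' deposited table, whose test is not stated, gives Egr1 a log2 fold change of 0.81 and a false discovery rate of 0.128, and Fos 1.54 and 0.145.

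Atf3 encodes a leucine zipper repressor of the ATF/CREB family that is induced by many kinds of cell stress. It measured 6.91 and 4.70 CPM in control against 11.04 and 8.51 CPM with cyclopamine. The groups did not overlap, and library 1 was the higher in each. The difference was 0.72 (SE 0.28, 95% interval 0.12 to 1.31, limma adjusted p = 0.678), and it lay between 0.46 and 0.97 when a library was left out.

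Dusp1, Ier2, Nr4a1 and Klf4 had smaller differences. Dusp1, which encodes a nuclear phosphatase that switches off MAP kinases, measured 23.7 and 21.3 CPM in control against 28.6 and 23.8 CPM with cyclopamine. The lower cyclopamine library was level with control 1, and the log2 difference was 0.21 (SE 0.19). Ier2, which encodes a small nuclear protein, measured 52.8 and 44.4 CPM against 51.6 and 36.1 CPM. It was the only member with a negative difference, -0.17 (SE 0.19), and this became 0.0896 without cyclopamine 2. Nr4a1, an orphan nuclear receptor gene, measured 18.0 and 8.74 CPM against 17.0 and 9.64 CPM. Library 1 was about as high, and library 2 about as low, in control as with cyclopamine, and the difference was 0.03 (SE 0.31, 95% interval -0.64 to 0.70). Klf4, a zinc finger gene, measured 9.29 and 6.32 CPM against 7.65 and 12.1 CPM, with a difference of 0.31 (SE 0.28). Its high library was cyclopamine 2, whereas cyclopamine 1 was the higher of the pair for the other 9 members. All 4 had a limma adjusted p of 0.9996.

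**Figure D2:**
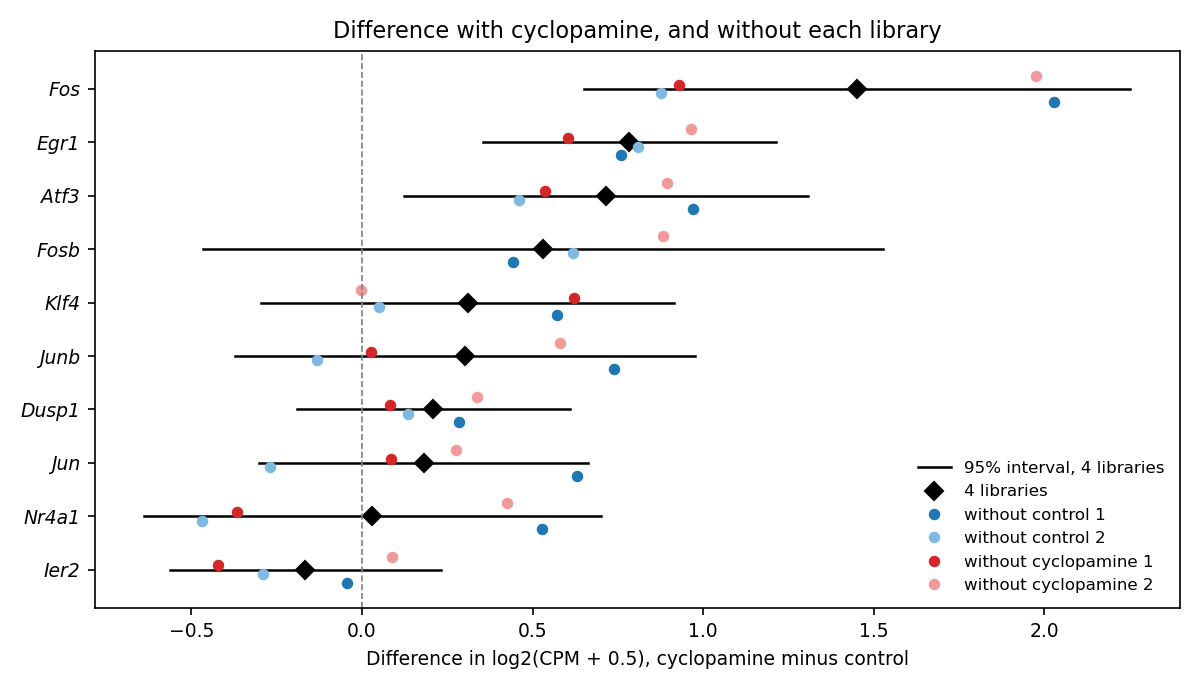
Difference in log2(CPM + 0.5), cyclopamine minus control, per gene: diamonds and black lines give the value and 95% interval from all 4 libraries, and coloured points the value without the library named. Fos, Egr1 and Atf3 stay above 0 in every case. Fosb and Dusp1 do so in every fitted value, but their intervals include 0. Jun, Junb and Nr4a1 cross 0 when control 2 is left out, Nr4a1 also without cyclopamine 1, and Ier2 and Klf4 without cyclopamine 2.

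Spread between libraries of a group was larger for these genes than for the median gene. Control 1 exceeded control 2 in 8 of 10 members (all but Fosb and Egr1), beside 49.4% of all tested genes. Cyclopamine 1 exceeded cyclopamine 2 in 9 of 10 (all but Klf4), beside 50.7%. The median absolute difference between controls was 0.52 on the log2 scale, against 0.22 over all genes tested, and between the cyclopamine libraries it was 0.53 against 0.20. Control 2 was the lowest of the 4 libraries for 7 members (26.2% of all genes), and cyclopamine 1 was the highest for 6 (25.1%). Without control 2 the members' median difference was 0.09 and without cyclopamine 1 it was 0.08. It was 0.60 without control 1 and 0.50 without cyclopamine 2.

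**Figure D3:**
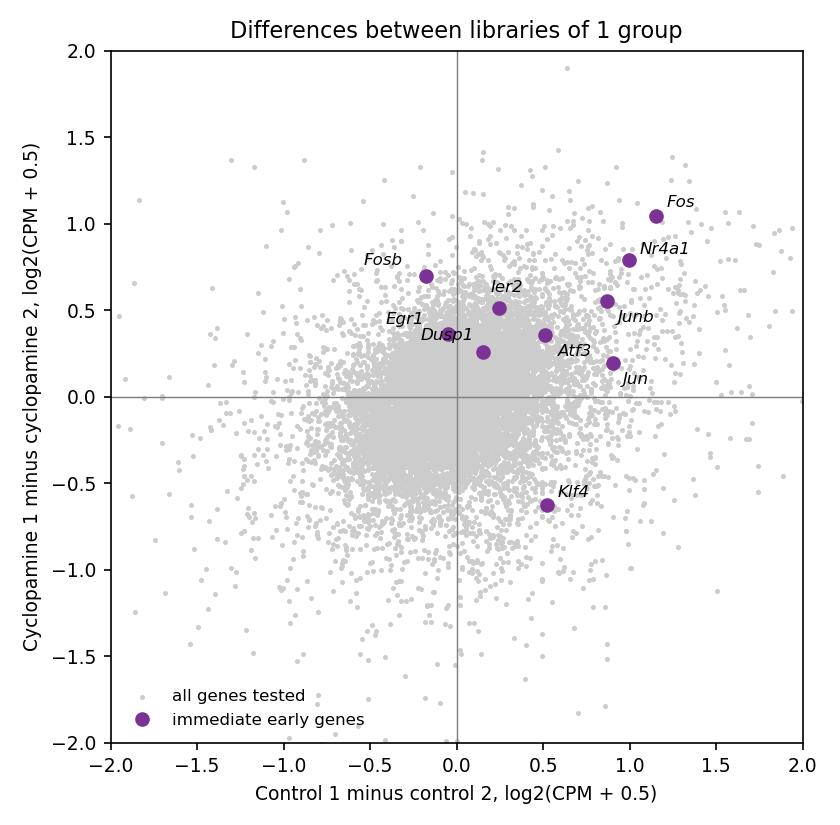
Control 1 minus control 2 (horizontal) against cyclopamine 1 minus cyclopamine 2 (vertical) in log2(CPM + 0.5) for all tested genes (grey) and the 10 members (purple). 56 of 13568 genes lie outside the axes, and 7 members sit in the upper right region, with Fos farthest out.

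Erythroid and stress genes followed a like order of libraries in their centred medians, with control 2 the lowest and cyclopamine 1 the highest, though the heat shock sums did not follow it. Limb mesenchyme markers had this order too, over a narrower range (-0.087 to 0.081). Signal genes, brakes and the remaining marker lists did not, and ectoderm markers were lowest in cyclopamine 2 (-0.28). The 5 erythroid markers, embryonic globin genes among them, of which 0 passed and 4 were higher at an unadjusted p under 0.05, summed to 1304 and 605 CPM in control against 2133 and 1252 CPM with cyclopamine. All 5 were higher in library 1 of each group. None was at 0, and only Hbb-y had both cyclopamine libraries above both controls, at 508.1 and 508.5 CPM where they came closest. Heat shock genes summed to 6405 and 6478 CPM against 8145 and 6367 CPM, and 11 of 13 lay higher, 0 past the test, with a median of 0.20 (0.0788 to 0.42 when a library was left out). Of these, Hspa1b, a chaperone gene, measured 23.4 and 0.735 CPM against 57.4 and 22.8 CPM, and its near-identical copy Hspa1a 14.4 and 0.367 CPM against 34.2 and 13.5 CPM. Reads of these copies cannot be assigned with certainty. Unfolded protein and amino acid stress genes lay higher in 11 of 12 cases, 0 past the test, with a median of 0.45, which was 0.14 without control 2, 0.15 without cyclopamine 1, 0.74 without control 1 and 0.72 without cyclopamine 2. Trib3, a pseudokinase gene of that response, measured 9.80 and 7.93 CPM against 17.2 and 13.9 CPM, and Herpud1 48.3 and 36.3 CPM against 57.2 and 56.6 CPM. The part of red cells or of stress in the immediate early gene values was not tested.

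Neural markers moved the other way. All 6 tested lay lower, and 5 passed the test (Tubb3, Stmn2, Elavl3, Zic1 and Ina). Sox2, with a difference of -2.43, did not (limma adjusted p = 0.0724). All 7 listed summed to 39.3 and 65.6 CPM in control against 7.57 and 10.05 CPM with cyclopamine, with Ina and Neurod4 at 0 in both cyclopamine libraries. Their part in the results was not tested. None of the remaining marker genes but Fgf8 passed the test. Ectoderm markers summed to 335 and 287 against 335 and 255 CPM. Fgf8, the growth factor gene of the ridge, fell (-1.64, SE 0.20, limma adjusted p = 0.000973). Endothelial markers summed to 365 and 369 against 397 and 456 CPM, and all 6 lay higher. Macrophage markers summed to 17.6 and 17.8 against 12.5 and 19.9 CPM, and myoblast markers to 44.8 and 78.9 against 70.1 and 79.2 CPM.

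**Figure D4:**
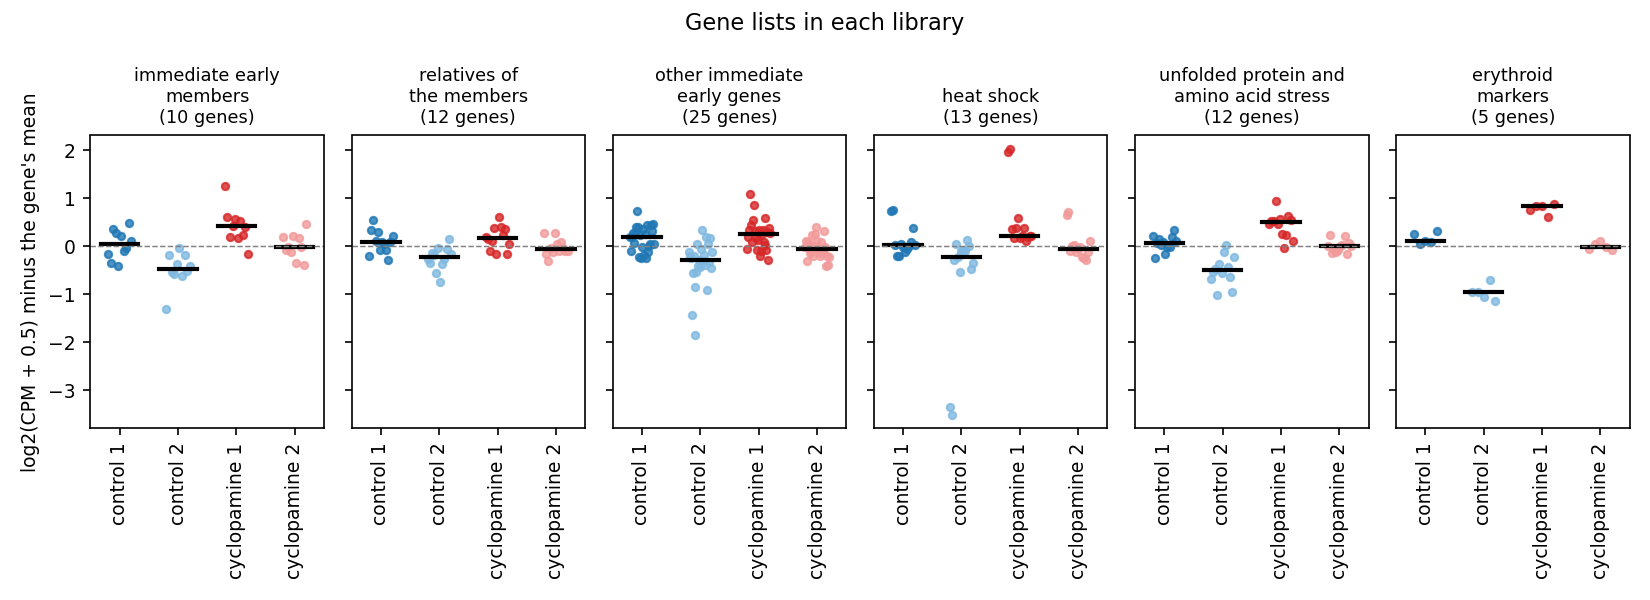
Each gene's log2(CPM + 0.5) minus its mean over the 4 libraries, for 6 gene lists, with a point per tested gene and a bar at the median. In each panel control 2 has the lowest median and cyclopamine 1 the highest, and for the 10 members these medians are -0.46 and 0.42. Of the lists not drawn, only limb mesenchyme markers have this order, with -0.087 and 0.081.

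Close relatives of the members had a smaller median difference, but their range overlapped that of the members. It ran from -0.41 for Ier3 to 0.67 for Klf5, against -0.17 to 1.45 for the members. Of the 16 relatives found, 12 were tested, 8 lay higher and 4 lower, 0 passed and 2 were higher at an unadjusted p under 0.05. Their median was 0.19, and it was 0.0249 without control 2 and 0.0397 without cyclopamine 1. Fosl2, another Fos family gene, measured 19.6 and 18.7 CPM in control against 26.0 and 27.4 CPM with cyclopamine (0.47, SE 0.18, limma adjusted p = 0.689). Klf5 measured 12.0 and 6.54 against 17.5 and 11.7 CPM, and Klf10 38.5 and 34.0 against 48.4 and 43.5 CPM. Ier3, which shares a name but not a family with Ier2, measured 35.4 and 21.8 against 22.3 and 19.3 CPM. The groups were separate for Fosl2 and Klf10 and overlapped for Klf5 and Ier3.

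Among 25 tested genes of other immediate early families, 15 lay higher and 10 lower, 0 passed, and the median was 0.07. This median was -0.14 without control 2, -0.0673 without cyclopamine 1, 0.35 without control 1 and 0.32 without cyclopamine 2. At an unadjusted p under 0.05 there were 4 higher and 1 lower. Cyr61, a matricellular protein gene that responds to serum and stretch, measured 31.7 and 9.33 CPM in control against 56.0 and 28.0 CPM with cyclopamine (1.17, SE 0.40, limma adjusted p = 0.542). Control 2 was again the low library. Gem, a small GTPase gene, measured 4.33 and 2.06 against 6.78 and 5.51 CPM, and Plk2, a kinase gene, 215 and 160 against 272 and 233 CPM. Phlda1 lay lower in both cyclopamine libraries, at 23.5 and 21.5 against 15.5 and 16.3 CPM (-0.49, SE 0.19, limma adjusted p = 0.711).

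Genes that carry the signal to immediate early promoters showed small differences. Of 28 tested, 0 passed, 0 had an unadjusted p under 0.05 and the median was 0.01. The differences ran from -0.23 for Mapk8, a JNK gene, to 0.20 for Srf. Srf measured 55.8 and 48.0 CPM in control against 66.3 and 53.9 CPM with cyclopamine. Elk4, a partner of serum response factor, measured 35.6 and 36.3 against 30.3 and 31.0 CPM, and Map2k4 114 and 125 against 142 and 126 CPM.

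Of 10 genes that restrain immediate early genes, through decay of their transcripts or as corepressors, 0 passed and 0 had an unadjusted p under 0.05. Zfp36, which encodes a protein that speeds decay of AU-rich transcripts and is itself induced early, measured 25.7 and 10.9 CPM against 30.1 and 21.4 CPM. Jdp2, an AP-1 repressor gene, measured 5.26 and 3.67 against 7.97 and 5.83 CPM. The Egr corepressor gene Nab2 measured 46.6 and 44.7 against 39.1 and 39.7 CPM, and Hnrnpd, for an RNA-binding protein, 552 and 553 against 543 and 424 CPM. The median of this list was -0.04.

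By Euclidean distance between centred log2 profiles over the 4 libraries, the genes outside the members most like Fos included Gbp7 (0.39), Anxa1 (0.40), Guca1a (0.43) and Cmya5 (0.45). These 4 genes lay higher in both cyclopamine libraries and lowest in control 2, as Fos did, which follows from choosing them by its profile. Of the 4, 0 passed the test, and Guca1a rested on 6, 3, 38 and 19 reads. Anxa1, which encodes annexin A1, measured 4.23 and 1.40 CPM in control against 8.28 and 5.35 CPM with cyclopamine. The member most like Fos was Atf3, at a distance of 0.99, and the least like it was Ier2, at 1.78. With 4 libraries and few reads such likeness is a description.

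Levels of different genes can be set side by side only per length, here as CPM per kilobase of a GENCODE vM21 coding transcript. Ier2 led with a mean of 30.4 over the 4 libraries, followed by Jun (15.7) and Dusp1 (12.2). The range of Ier2, 23.7 to 34.7, did not meet that of Jun, 10.4 to 19.6, which in turn enclosed that of Dusp1, 10.7 to 14.4. Nr4a1 (5.23), Egr1 (4.53), Fos (4.41), Junb (4.14), Atf3 (3.93) and Klf4 (2.92) followed, with each range overlapping the next. Fosb came last at 0.295, with a highest library of 0.501, below the lowest of Klf4 at 2.09. Fos ranged from 1.32 in control 2 to 8.91 in cyclopamine 1 on this scale, the widest ratio among the members.

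Most members had compact coding models, and 8 of the 10 spanned at most 10 kb, beside 24.9% of tested genes. The exceptions were Atf3 (13.0 kb) and Nr4a1 (20.5 kb, 8 exons). The members' models held a median of 4 exons, against 9 over 12311 tested genes, and Jun, Junb and Ier2 had 1 exon (2.20% of tested genes). Of the 10, 8 had at most 4 exons, beside 20.2%. The median genomic span of these models was 4.27 kb, against 23.4 kb over tested genes. With all annotated transcripts, the genes Atf3 and Dusp1 span 47.7 and 56.5 kb. In the 3′ untranslated region the AUUUA pentamer, a mark of short-lived transcripts, occurred 4 times in Fos, Jun and Dusp1, 3 times in Atf3 and Nr4a1, 2 times in Junb and Egr1, 1 time in Fosb and Klf4, and 0 times in Ier2. At least 3 copies were in 5 members, beside 37.0% of tested genes. Per kilobase, 7 members exceeded the median of tested genes, 1.31, with the highest density in Dusp1 (5.80). The longer UAUUUAU was in 5 members, beside 29.7% of tested genes.

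By the GENCODE annotation of mm10, the genes are at chromosome 12, 85473890 to 85477273 (Fos), chromosome 7, 19302696 to 19310051 (Fosb), chromosome 4, 95049034 to 95052222 (Jun) and chromosome 8, 84974484 to 84978718 (Junb). Ier2 lies 312 kb from Junb, at 84661331 to 84662852. Atf3 is at chromosome 1, 191170296 to 191218039, Dusp1 at chromosome 17, 26505590 to 26562128, Nr4a1 at chromosome 15, 101254269 to 101274795, Klf4 at chromosome 4, 55527143 to 55532466, and Egr1 at chromosome 18, 34859823 to 34864984. Exons of Jun, Junb and Dusp1 overlap those of Junos, Prdx2 and Ergic1 on the opposite strand. No source used here says how strand or reads in such overlaps were treated in counting. The values of these 3 genes may therefore hold reads of their neighbours or lack reads of their own.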

How the data were processed

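RNA sequencing was done on the SOLiD platform in 4 libraries. Per the submitters' processing notes, the tools were edgeR 3.4.2, HTSeq 0.5.4p5, TopHat2 2.0.9, Bowtie and SAMtools and the build mm10, with no role or order given. The deposited table holds a normalized signal per gene, on the scale of CPM (counts per 1000000) of an effective library size. Every value was a whole multiple of what 1 read is worth (100% of values, within 0.01), so reads were recovered for the count tests. The authors' deposited comparison holds log2 fold changes and p-values, by a test not stated.

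Limma 3.58.1 in R 4.3.3 was fitted with an intensity trend to log2(CPM + 0.5) of the 13568 genes whose mean reached 1 CPM, with two-sided p-values adjusted by Benjamini-Hochberg over all of them and a threshold of 0.05. All 10 members passed this filter. Fold changes on this scale are understated for low genes, and p-values measure only the spread between these libraries. Alternatives were edgeR 4.0.16, DESeq2 1.42.0, other scalings, pseudocounts and filters, no trend, a replicate block and leaving out each library. The fits were tested on data simulated with the same spread beyond counting error for every gene. The larger spread of the members between libraries was therefore not covered.

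The members and the other gene lists, 16 in all, were chosen with earlier results of these data known. Older symbols were matched through RefSeq synonyms for 4 of 175 list entries, and 5 entries were not matched (Egr3, Egr4, Npas4, Hoxc11 and Hba-a1) and not analysed here. Outside the members, the genes named were up to 4 of smallest p per list (2 for stress lists), every gene past the threshold, Hedgehog targets, and the 5 profiles nearest to Fos. Fosl1, Egr2, Nr4a3, Klf2, Neurod4 and Sox2 were named after their values were seen. Some genes that this rule names are not reported here. Promoters are RefSeq's (GRCm38.p6), found for 8 members.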

Additional observations from a re-analysis of the deposited data

How the results depend on the processing

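With the replicate block, which the labels tie to no litter, batch or day, limma called 2 members, Fos (adjusted p = 1.18e-06) and Egr1 (0.00153), and 351 genes in all. Control 1 minus control 2 correlated with cyclopamine 1 minus cyclopamine 2 across genes (Pearson's r = 0.27), which are not independent replicates. The count of members called was 0 under every other alternative with 4 libraries and 0 to 1 when a library was left out. The count over all genes, 38, was 77 by edgeR's exact test, 20 with library totals, 2 without the filter and 0 with no trend in limma (837 genes, 3 of them members, had an unadjusted p under 0.05), and 43 to 122 when a library was left out. Of these 38, 6 were higher, against 20, 3, 1, 0 and 186 by the exact test, totals, no filter, no trend and the block, 10 by DESeq2, and 24 to 68 when a library was left out.

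Directions changed only when a library was left out: Jun ran from -0.27 to 0.63, Junb from -0.13 to 0.74, Ier2 from -0.42 to 0.0896, Klf4 from -0.00282 to 0.62 and Nr4a1 from -0.47 to 0.53. Fos (0.88 to 2.03), Egr1, Atf3, Dusp1 and Fosb stayed positive in every fit that included them. Fosb fell under the filter without cyclopamine 1 and at a mean of at least 5 CPM. The members' median ran from 0.08 to 0.60 without a library and from 0.26 to 0.32 under the others. The depth limits Fosb most, at 7 to 24 reads a library. Where a library was left out, the remaining library of that group was assumed to vary like the other group.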

Other observations

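Relatives of the members that lay under the filter had between 0 and 20 reads a library, where 3 reads are 0.22 to 0.31 CPM. Fosl1, a Fos family gene, was listed at 0 in both controls and at 0.316 and 0.081 CPM in cyclopamine, from 4 reads and 1 read. Egr2 measured 0.722 and 0.514 CPM in control against 0.71 and 0.243 CPM with cyclopamine, and Nr4a3 0.31 and 0.661 against 0.789 and 0.486 CPM. Klf2, which in many tissues marks endothelium under flow, measured 0.206 and 0.441 against 0.71 and 1.62 CPM. These 4 genes were not tested.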
